A study of Mus musculus with 16 samples.

Results

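The H3K9me3 peaks near the distal (telomeric) ends of the mouse autosomes were examined in small intestinal crypts with and without Smarcad1. A peak was included if it lay on chromosomes 1 to 19 and started within 3 Mb of the largest peak end on its chromosome, which gave 2615 of the 212313 H3K9me3 peaks (1.23%). The choice used position alone and no measured level. The same windows held 797 of the 47065 H3K9me2 regions.

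The study profiled H3K9me2 and H3K9me3 by chromatin immunoprecipitation with sequencing (ChIP-seq) on formaldehyde-fixed whole crypt isolates from the small intestine of C57BL/6 mice. Mice labelled wild type (WT) were compared with mice in which Smarcad1 had been deleted by Vil-Cre (KO), a Cre recombinase under the Villin promoter. This promoter acts in the intestinal epithelium, so other cells in the isolate keep the gene. For each mark, 3 libraries per genotype and 1 input per genotype (chromatin without antibody) were sequenced. The study calls its replicates biological, but no source used here ties a library to an animal, and p-values measure the spread between these libraries. In whole crypts, a lower signal in every cell and a lost signal in some of the cells cannot be told apart, and the marks gave no check of the tissue label or of the deletion.

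H3K9me3 is bound by HP1 proteins and marks constitutive heterochromatin at centromeres, telomeres and silenced repeats. Telomeres consist of tandem TTAGGG repeats, and the subtelomere next to them is rich in repeats and in recently duplicated genes. Smarcad1 is a nucleosome remodeler that has been linked to the upkeep of silent chromatin through DNA replication. In many mammalian cells H3K9me3 also covers arrays of genes for zinc finger proteins, many of which are themselves repressors.

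The telomere itself was not in the genome to which reads were mapped, since every reference chromosome closed with 100000 or 150000 unknown bases. The last peak ended within 10 kb of the last known base on 14 of the 19 chromosomes. Runs of at least 3 TTAGGG units, or of CCCTAA on the other strand, stood in the last 10 kb of known sequence on 18 chromosomes, with up to 88 units in a run on chromosome 7. Peaks rarely held such runs: 10 of the 2615 distal peaks (0.382%) held a run of 2 or more units, against 0.0671% of all autosomal peaks, and 3 distal peaks held a run of 4 or more, against 36 autosomal peaks in all. Single copies, searched on both strands, were found in 44.2% of distal peaks and in 46.3% of autosomal peaks.

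Some peaks near the ends shared another repeated sequence. In the peak at chr17:94871401-94881450 (Gm20939), the 14-mer ACTGGAGAGAAACC was the most frequent 14-mer, with 22 copies, and 16 of the 21 steps from one copy to the next were 84 bp. The peak at chr8:129278851-129286200 (Gm32856) held 21 copies, with 17 of 20 steps of 84 bp. Such a stretch codes for the linker between neighbouring fingers in genes for C2H2 zinc finger proteins. To show the repeat, the 250 bases with most copies in each peak are printed, at chr8:129282535-129282784 and chr17:94875753-94876002 on the plus strand of GRCm38.p6, with the 14-mer in capitals.
chr8 zinc finger repeat: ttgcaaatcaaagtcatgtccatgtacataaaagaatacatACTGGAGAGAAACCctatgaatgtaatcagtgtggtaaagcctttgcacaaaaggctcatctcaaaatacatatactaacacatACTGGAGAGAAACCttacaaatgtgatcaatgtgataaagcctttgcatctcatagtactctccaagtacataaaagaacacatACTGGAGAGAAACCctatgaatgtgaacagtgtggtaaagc
chr17 zinc finger repeat: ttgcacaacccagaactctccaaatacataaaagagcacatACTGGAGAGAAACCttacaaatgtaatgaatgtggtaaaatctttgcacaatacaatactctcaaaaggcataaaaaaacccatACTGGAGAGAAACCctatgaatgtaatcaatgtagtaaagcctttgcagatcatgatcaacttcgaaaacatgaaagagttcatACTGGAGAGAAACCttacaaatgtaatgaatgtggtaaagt
Of the 21-mers in the chromosome 8 peak, counted on either strand, 34.1% were also found in the chromosome 17 peak. The 14-mer or its complement GGTTTCTCTCCAGT was present in 24 distal peaks (0.918%) and in 0.135% of autosomal peaks. At least 3 copies were present in 22 distal peaks (0.841%), against 0.0886% of autosomal peaks. These 22 peaks lay on 10 chromosomes, and each was within 227 kb of the last peak end. The 14-mer was chosen after these sequences had been read.

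Distal peaks and other peaks had the same median width, 1350 bp, and the distal peaks together covered 4.99 Mb. Median GC content was 40.6% in distal peaks and 39.5% in the other autosomal peaks. Repeat sequence (lower case in the reference) made up a median 48.4% of a distal peak and 34.6% of another. Genes were overlapped by 33.3% of distal peaks and 29.3% of others, exons by 9.75% and 6.72%, and transcription start sites by 4.17% and 2.75%. There were 336 genes within 5 kb of a distal peak. Reads in all H3K9me3 peaks ranged from 7047929 in KO replicate 1 to 11826904 in KO replicate 2, and the median distal peak held 22 to 36 reads per library.

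The first comparison asked whether H3K9me3 at the distal peaks depends on Smarcad1. More distal peaks were lower in KO than higher. On the deposited log2 values, whose distributions the authors had matched across libraries, limma with Benjamini-Hochberg adjustment over all peaks called 149 distal peaks lower (5.70%) and 4 higher (0.153%). Over all 212313 peaks the same fit called 2.46% lower and 0.252% higher. The lower peaks changed by -0.31 to -2.00 (log2), and in 145 of the 149 all 3 KO values lay under all 3 WT values. That order was found in 382 distal peaks (14.6%) and in 8.21% of all peaks, and the opposite order in 161 distal peaks (6.16%) and in 7.3% of all peaks. The median change over the distal peaks was -0.025, against 0.028 over all peaks. The KO input was not lower at the called peaks, where its read share was a median 0.08 (log2) above that of the WT input. EdgeR and DESeq2 on recovered counts called 155 and 69 distal peaks lower and 5 and 0 higher. They gave an adjusted p for 211292 and 154685 of all peaks. Of those, they called 2.75% and 1.47% lower and 0.269% and 0.0802% higher. Without WT replicate 1 limma called 95 lower and 9 higher (1.53% and 0.252% over all peaks).

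As a share of all reads in peaks, the distal peaks held 1.43%, 1.40% and 1.40% in the WT libraries (1.41% ± 0.02, SD, n = 3) and 1.30%, 1.33% and 1.32% in the KO libraries (1.32% ± 0.015, n = 3). Every KO library was under every WT library, by 0.09 on the log2 scale of the means. The inputs moved the other way, at 1.21% in WT and 1.25% in KO. In 13 of the 19 distal windows (68.4%) all 3 KO read shares were under all 3 WT read shares, against 49.6% of the 811 windows of 3 Mb that tile the autosomes. The opposite order was found in the chromosome 3 window alone, against 21.6% of all windows.

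**Figure D1:**
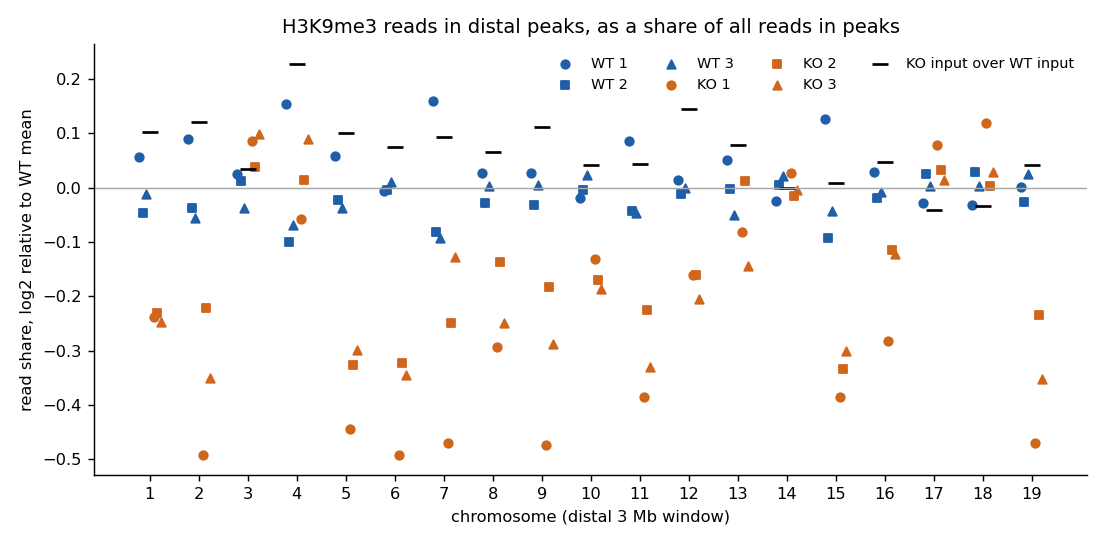
H3K9me3 reads in the distal peaks of each chromosome as a share of all reads in peaks, on a log2 scale relative to the WT mean, with 1 symbol per library (WT blue, KO orange) and a black dash for KO input over WT input. The KO libraries lie under the WT libraries in 13 of the 19 windows, while the windows of chromosomes 17 and 18 stay near 0.

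The distal windows differed widely. Chromosome 6 had the most lower peaks, 23 of 87 (26.4%), against 1.85% on the rest of that chromosome. Its read share was 0.0754%, 0.0755% and 0.0762% in WT and 0.0538%, 0.0605% and 0.0596% in KO, so that the groups were well apart. On chromosome 2, 10 of 31 peaks were lower (32.3%), and the read share was 0.0335%, 0.0307% and 0.0303% in WT and 0.0224%, 0.0270% and 0.0247% in KO. Chromosome 9 followed with 19 of 65 (29.2%) and chromosome 19 with 12 of 53 (22.6%). On the rest of chromosomes 2, 9 and 19 the shares were 2.42%, 3.71% and 5.18%. DESeq2 called fewer in the distal windows, 12 on chromosome 6, 3 on chromosome 2, 10 on chromosome 9 and 7 on chromosome 19. At the other extreme, chromosome 17 had 1 lower peak among 527 (0.19%), against 3.23% on its rest, and its read shares overlapped, with 0.235%, 0.244% and 0.240% in WT and 0.253%, 0.245% and 0.242% in KO. Chromosome 18 had 3 of 488 (0.615%). On chromosome 13, 0 of 104 peaks were called by limma, where 9 had an unadjusted p under 0.05, and edgeR and DESeq2 also called 0. The share of lower peaks was above that of the rest of the same chromosome in 15 of the 19 windows, and the median change was below 0 in 14.

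The share of lower peaks went down as the number of peaks per window went up. Over the 19 windows the Spearman correlation of peak number with the share called lower was -0.65. It was -0.72 with median GC content, so both moved together, and their separate parts in the result were not tested. The 14 windows with 31 to 112 peaks held 839 peaks, of which 116 were lower (13.8%), with a median change of -0.26. The 5 windows with 227 to 527 peaks (chromosomes 3, 10, 14, 17 and 18) held 1776 peaks, of which 33 were lower (1.86%), with a median change of 0.05. The limit of 120 peaks between these groups was set after the values were seen.

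The distal windows were set beside other autosomal windows of the same peak number. With up to 60 peaks, the 8 distal windows had 54 lower peaks of 323 (16.7%), and 213 other windows had 19.9%. With 60 to 120 peaks the shares were 12% in 6 distal windows and 12.4% in 139 others, and with 120 to 250 peaks 5.41% in 2 and 3.77% in 134. With 250 to 500 peaks they were 0.889% in 2 distal windows and 1.15% in 160 others, and above 500 peaks 0.19% in 1 and 0.18% in 146. The distal share was the higher in some of these bins and the lower in others, and the differences were not tested. At matched GC content, without regard to peak number, the distal share was the higher in 8 of 9 bins, for example 14.3% against 5.87% at 44 to 46% GC and 0.765% against 0.379% up to 36% GC.

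**Figure D2:**
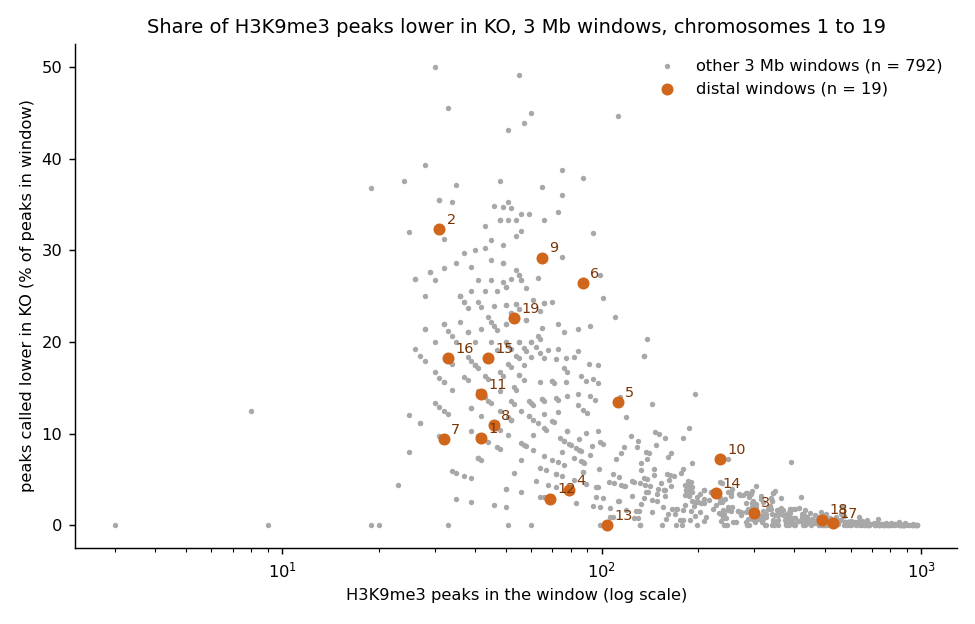
Share of H3K9me3 peaks called lower in KO (percent, vertical axis) against the number of peaks (log scale) in each 3 Mb window of chromosomes 1 to 19, with the 19 distal windows in orange, labelled by chromosome, and the 792 other windows in grey. The distal windows lie within the cloud of other windows, from chromosome 2 (31 peaks, 32.3%) to chromosome 17 (527 peaks, 0.19%).

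Just inside the 3 Mb limit, at 2.5 to 3 Mb, 47 of 603 peaks were lower (7.79%) and 3 higher, and just outside, at 3 to 3.5 Mb, 25 of 618 were lower (4.05%) and 0 higher. The 47 include the 12 lower peaks of a dehydrogenase gene cluster on chromosome 10, described below. The share without this cluster was not computed. Over wider bins the share called lower was 4.92% at 3 to 6 Mb, 5.62% at 6 to 9 Mb, 2.83% at 9 to 12 Mb and 4.24% at 12 to 15 Mb. The shares called higher in these bins were 0.188%, 4.35%, 2.16% and 0.256%, against 0.252% of all peaks. At the opposite, centromeric end, the first 3 Mb of peaks held 169 lower peaks of 3421 (4.94%) and 0 higher by limma. In either direction 532 of the 3421 had an unadjusted p under 0.05, with 190 and 92 called by edgeR and DESeq2. Over all 212313 peaks these counts were 22979, 6381 and 2393.

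Level was measured as ChIP over input, the share of a library's reads in peaks divided by that in the input of the same genotype, on a log2 scale. A value of 0 is therefore the level of all peaks pooled, not that of the input. Next to the ends the WT medians were the highest of the 10 distance bins. In the last 0.1 Mb the median over 150 peaks was 0.33, 0.42 and 0.37 (log2) in WT and 0.23, 0.10 and 0.11 in KO. At 0.1 to 0.25 Mb it was 0.25, 0.22 and 0.22 in WT, over 169 peaks, and 0.00, 0.01 and 0.00 in KO. In both bins every KO library was under every WT library, as also at 1 to 2 Mb (0.06, 0.10 and 0.08 in WT, -0.03, -0.11 and -0.09 in KO) and, outside the distal windows, at 3 to 6 Mb (-0.01, -0.03 and -0.04 in WT, -0.06, -0.11 and -0.08 in KO). In the other bins up to 6 Mb the groups overlapped, for example at 0.5 to 1 Mb, where the means were -0.09 in WT and -0.07 in KO. Over all distal peaks the medians were -0.01, 0.02 and -0.01 in WT and -0.01, -0.07 and -0.05 in KO, near those of the other autosomal peaks (-0.09, -0.06 and -0.07 in WT, 0.00, -0.04 and -0.04 in KO). With 1 input per genotype, this level has no replicate check.

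**Figure D3:**
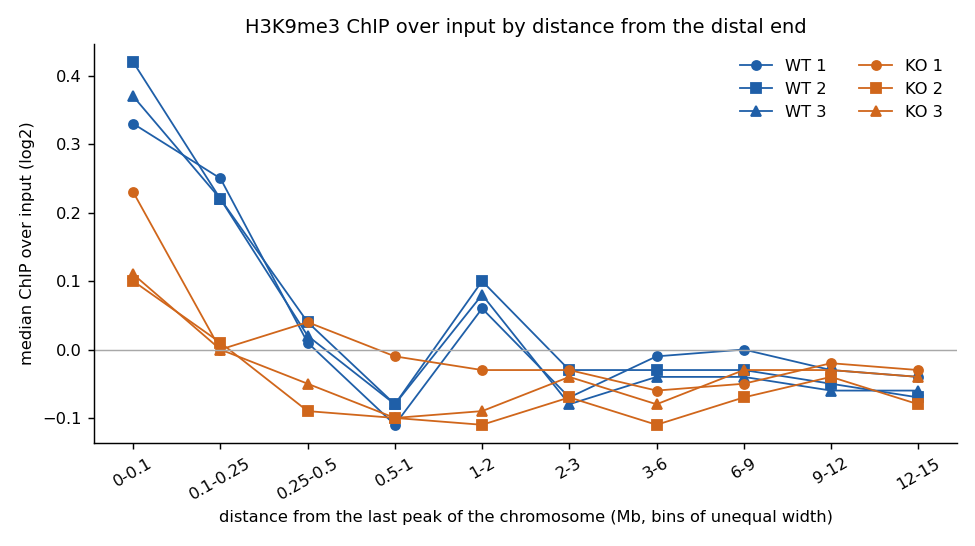
Median H3K9me3 ChIP over input (log2, vertical axis) of the peaks in each bin of distance from the last peak of the chromosome (Mb, bins of unequal width), with 1 line per library, WT blue and KO orange. The last 0.1 Mb has the highest WT medians, 0.33 to 0.42, and all KO lines lie under all WT lines in the bins at 0 to 0.1, 0.1 to 0.25, 1 to 2 and 3 to 6 Mb.

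A small group of distal peaks stood well above the level of all peaks together. With at least 20 reads in each input and a median ChIP over input of at least 1 (log2) over the 6 libraries, 32 distal peaks passed (1.22%), against 0.185% of the other autosomal peaks. Of the 32, 23 lay within 250 kb of the last peak end, where 319 distal peaks were found in all, and 13 held at least 3 copies of the zinc finger 14-mer printed above. Elsewhere on the autosomes 58 of the 382 peaks that passed held as many copies. Transcription start sites were overlapped by 37.5% of the 32 distal peaks. Limma called 7 of the 32 lower (21.9%) and 0 higher, and 21.2% of the other enriched autosomal peaks lower. These shares are a description only, since the same 6 libraries chose the peaks and some passed through their WT values.

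The highest of them lay at chr19:61249801-61252800, 79.3 kb from the last peak end and outside genes, with 99.5% of its bases in repeats. Its ChIP over input was 2.10, 1.82 and 1.99 (log2) in WT and 0.66, 1.12 and 0.86 in KO, with no overlap. Its log2 values after the authors' matching of distributions were 7.04, 6.75 and 6.94 in WT and 6.35, 6.82 and 6.54 in KO, which overlapped, and the change of -0.34 (SE 0.13) did not pass the test (limma, adjusted p = 0.233). The inputs held 26 reads in WT and 43 in KO, and the part of these few input reads in the gap was not tested. The centre of this peak (chr19:61251201-61251400, plus strand, GRCm38.p6) had a GC content of 54% and 15 CG dinucleotides, shown in capitals, and is printed for its base composition, which differs from that of the most reduced distal peak at Rdh16.
chr19 peak centre: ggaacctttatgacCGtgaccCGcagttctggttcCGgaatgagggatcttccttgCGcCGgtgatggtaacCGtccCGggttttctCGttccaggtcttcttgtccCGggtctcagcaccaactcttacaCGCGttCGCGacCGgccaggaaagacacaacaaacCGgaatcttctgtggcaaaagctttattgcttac
Next came chr11:121851601-121866450 at Gm12586, with 1.54, 1.38 and 1.45 in WT and 1.33, 1.42 and 1.22 in KO, and chr19:61173751-61187550 at Gm7102, with 1.39, 1.39 and 1.51 in WT and 1.38, 1.58 and 1.37 in KO. Both hold the 14-mer, and neither passed the test (changes of -0.12 and -0.05, limma, adjusted p = 0.545 and 0.876).

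The 22 distal peaks with 3 or more copies of the 14-mer had a ChIP over input between 0.45 and 1.40. Their library medians averaged 1.05 in WT and 1.11 in KO. Such levels were not confined to the ends. Elsewhere on the autosomes 163 peaks held as many copies, with averages of 1.12 in WT and 1.00 in KO. Limma called 2.45% of those lower and 1.23% higher, and their median change was -0.03. Changes at the 22 distal peaks ran from -0.27 to 0.10, and 21 of 22 were below 0. None was called by limma or DESeq2, 3 had an unadjusted p under 0.05, and edgeR called 1, chr2:181942951-181950750 (-0.32, edgeR, adjusted p = 0.0333). The changes were small. In 5 of the 22 (22.7%) all KO values lay below all WT values, against 14.6% of distal and 8.21% of all peaks. The KO input held a read share 0.12 (log2) below that of the WT input at the 22 peaks. Its part in their ChIP over input was not tested. Copies in these peaks resemble each other, and the authors removed reads of low mapping quality, so levels here are uncertain.

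The 3 distal peaks with most TTAGGG or CCCTAA units in all did not pass the test. The last peak of chromosome 6, at Gm21814 (chr6:149576851-149586600, 19 units), had 9.09, 9.20 and 9.13 in WT and 8.97, 9.04 and 8.94 in KO. All KO values were under all WT values, yet the change of -0.16 (SE 0.07) did not pass (limma, adjusted p = 0.407). The wide peaks chr4:153592351-153635550 (24 units) and chr4:153510751-153543600 (19 units) had changes of 0.01 and 0.04 (limma, adjusted p = 0.986 and 0.909). Their units stood singly, over widths of 43200 and 32850 bp, while the chromosome 6 peak held a run of 15. The other distal peaks with a run of at least 4 units were at Gm21836, the last of chromosome 9 (run of 6), and near Olfr767 (chr10:129085051-129086700, run of 4). Their changes were -0.05 and -0.38 (limma, adjusted p = 0.921 and 0.503). Among the 19 peaks that were the last on their chromosome, limma called 2 lower (10.5%, against 5.70% of distal and 2.46% of all peaks), at chr15:103924801-103930650 (-0.45, adjusted p = 0.011) and chr3:159830101-159831000 (-0.95, adjusted p = 0.0215), and 0 higher. Of the 19, 4 had an unadjusted p under 0.05, and edgeR and DESeq2 called 2 and 0. Over the 2615 distal peaks these counts were 454, 160 and 69, and over all 212313 peaks 22979, 6381 and 2393. Changes at these 19 peaks ranged from -0.95 to 1.23, and ChIP over input from -0.42 to 1.21.

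Of the distal peaks over genes, 70 of 870 were called lower (8.05%), and of those not over a gene 79 of 1745 (4.53%). Elsewhere on the autosomes the shares were 3.48% and 2.01%. In all, 98 of the 149 lower peaks lay within 5 kb of a gene, of 75 genes together, and 8 overlapped a transcription start site and 19 an exon. Their median width was 1950 bp and their median GC content 43.6%.

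The largest decrease was over a cluster of short-chain dehydrogenase genes on chromosome 10 that act on retinol and steroids. Of 11 such genes listed, 6 had 15 distal peaks within 5 kb, of which 12 were lower (80%, against 5.70% of distal and 2.46% of all peaks), at 5 genes, and 0 higher, with a median change of -1.13, and DESeq2 called 8. The peaks span chr10:127769551-127998750. The list was drawn up with earlier results of these data known, so the count describes the cluster. The strongest was in an intron of Rdh16, a retinol dehydrogenase (chr10:127817551-127822650), with 7.82, 8.05 and 8.17 in WT and 5.76, 6.18 and 6.12 in KO. These groups were far apart, with a change of -2.00 (SE 0.12, limma, adjusted p = 1.42e-16). The WT ratio to input was 1.15 and the KO ratio -0.91 (log2), with 102 input reads in WT and 103 in KO. Its centre (chr10:127820001-127820200, plus strand, GRCm38.p6) had a GC content of 24.5% and no CG dinucleotide, and is printed as the core of the most reduced distal peak, in which a CG would be in capitals.
Rdh16 peak centre: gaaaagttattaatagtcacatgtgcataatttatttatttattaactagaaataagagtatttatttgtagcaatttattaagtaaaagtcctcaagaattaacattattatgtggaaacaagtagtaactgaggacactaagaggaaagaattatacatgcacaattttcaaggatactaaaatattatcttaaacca
At Rdh16f1 lay 5 of the 15 peaks, of which 3 were lower (-1.29, -1.13 and -1.03). At Rdh9, 254 bp from the gene, the peak chr10:127792951-127794450 had 5.98, 5.60 and 5.86 in WT and 3.47, 4.54 and 4.28 in KO (-1.72, SE 0.24, limma, adjusted p = 1.2e-06). In an intron of Rdh16f2, chr10:127870201-127871550 had 5.85, 5.67 and 5.84 in WT and 4.18, 4.48 and 3.87 in KO (-1.61, SE 0.22, limma, adjusted p = 1.04e-06). Rdh19 had 1 lower peak (-1.14), while the peak at Hsd17b6 did not pass (-0.65, limma, adjusted p = 0.356). These genes are close copies of each other, so reads may be shared between them or lost.

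**Figure D4:**
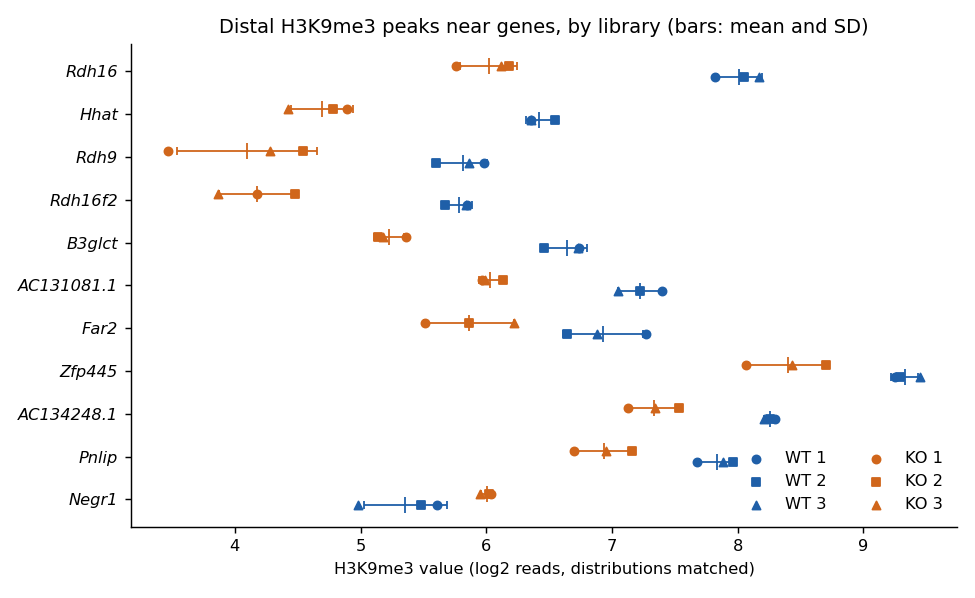
H3K9me3 values (log2 reads with matched distributions, horizontal axis) in each library for the 10 lower distal peaks of smallest p near genes and the higher one at Negr1, with WT in blue, KO in orange and bars for mean and SD. Peaks were chosen so that WT and KO values do not overlap, and the gap is widest at Rdh16 (WT 7.82 to 8.17, KO 5.76 to 6.18).

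Outside that cluster, several lower peaks of small p lay at single genes. Hhat encodes the acyltransferase that adds palmitate to hedgehog proteins, and its intronic peak chr1:192674251-192676200 had 6.36, 6.55 and 6.36 in WT and 4.89, 4.78 and 4.42 in KO (-1.73, SE 0.18, limma, adjusted p = 1.78e-09). B3glct encodes a glucosyltransferase that modifies thrombospondin repeats, and its peak chr5:149729701-149732100, over an exon, had 6.74, 6.46 and 6.73 in WT and 5.36, 5.14 and 5.18 in KO (-1.42, SE 0.16, limma, adjusted p = 9.76e-09). Far2, a fatty acyl-CoA reductase gene, had 7.27, 6.64 and 6.88 in WT and 5.51, 5.86 and 6.22 in KO at chr6:148058701-148061700, over an exon (-1.07, SE 0.16, limma, adjusted p = 4.45e-06). These 3 peaks were chosen among those whose groups do not overlap.

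Zfp445 encodes a KRAB zinc finger protein that helps to maintain genomic imprints. The peak over its transcription start site, chr9:122851801-122862900, had 9.25, 9.29 and 9.45 in WT and 8.07, 8.70 and 8.43 in KO (-0.93, SE 0.09, limma, adjusted p = 6.16e-10). The WT ratio to input was 1.12 and the KO ratio -0.07 (log2). Among genes whose symbols start with Zfp, 3 had 9 distal peaks, of which 4 were lower (44.4%, against 5.70% of distal and 2.46% of all peaks), 3 at Zfp445 and 1 at Zfp950 (-1.03), and 0 higher, with a median of -0.26. DESeq2 called 2 of them, both at Zfp445, and gave no adjusted p for the Zfp950 peak. At Zfp105 the change was -0.12 and did not pass (limma, adjusted p = 0.848).

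Pnlip encodes pancreatic lipase, and the peak 2115 bp from it, chr19:58683901-58689150, had 7.68, 7.96 and 7.88 in WT and 6.70, 7.16 and 6.95 in KO (-0.90, SE 0.11, limma, adjusted p = 1.46e-07). The annotated transcripts AC131081.1 on chromosome 10 (-1.19, limma, adjusted p = 5.85e-09) and AC134248.1 on chromosome 9 (-0.92, limma, adjusted p = 4.34e-09) complete the 10 peaks of smallest p near genes. Nearer the ends, the chromosome 19 peak chr19:61154401-61157100, outside genes and 0.175 Mb from the last peak end, had 6.90, 6.86 and 6.88 in WT and 5.20, 5.92 and 5.59 in KO (-1.31, SE 0.15, limma, adjusted p = 3.55e-08). On chromosome 11, chr11:120327901-120335250, with 92.2% of its bases in repeats, had 8.84, 8.80 and 8.83 in WT and 7.90, 8.16 and 8.05 in KO (-0.79, SE 0.08, limma, adjusted p = 3.86e-09). The KO ratio to input was 0.80 and the WT ratio 1.72 (log2). Of its 21-mers, 28.6% were shared with chr15:103841251-103847100, also a distal peak.

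In the other windows the peak of smallest p changed by -0.53 to -1.14. Dnajc5, which encodes a co-chaperone of synaptic vesicles, had 6.14, 6.59 and 6.26 in WT and 4.95, 5.48 and 5.14 in KO in its intron at chr2:181530301-181532550 (-1.14, limma, adjusted p = 9.59e-06). At 1600002D24Rik (chr16:95883301-95886150) the values were 6.65, 6.46 and 6.36 in WT and 5.46, 5.71 and 5.43 in KO (-0.96, limma, adjusted p = 2.84e-05). Introns of Megf6 (-0.92), Sp4, a transcription factor gene (-0.68), Rttn, whose product acts at centrioles (-0.67), and E230032D23Rik (-0.79) held the peaks for chromosomes 4, 12, 18 and 7. Peaks near Gm43655 (-0.69) and Mucl2 (-0.55) led on chromosomes 3 and 15. Peaks outside genes led on chromosome 14 (-0.92), chromosome 8 (-0.62) and chromosome 17 (-0.53). The chromosome 17 peak, chr17:93788101-93790800, was the only one called there (limma, adjusted p = 0.0466), and leaving out any of 5 of the 6 libraries, all but KO replicate 1, ended its call.

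Distal chromosome 7 carries the imprinted Kcnq1 and H19 domain. Of its 22 listed genes, 4 had 7 distal peaks, of which 2 were lower (28.6%, against 5.70% of distal and 2.46% of all peaks) and 0 higher, with a median of -0.35. DESeq2 called 0 of the 7. Both lower peaks were at Kcnq1, a potassium channel gene. The stronger, chr7:143227651-143229150, had 5.50, 5.57 and 5.86 in WT and 5.36, 4.03 and 4.55 in KO (-1.0, SE 0.23, limma, adjusted p = 0.00551). The KO values varied widely, and the call was lost without WT replicate 3 or KO replicate 2. Not every Kcnq1 peak was lower. The peaks chr7:143114101-143115300 (-0.35) and chr7:143294251-143296500 (0.30) were not called (limma, adjusted p = 0.574 and 0.481). The peak at the start site of Cdkn1c, a cell cycle inhibitor gene, was at 0.31 (limma, adjusted p = 0.491) and the peak near H19 at -0.01 (limma, adjusted p = 0.991).

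Other gene families in the windows differed in their counts. Apart from genes named Gm or Rik, olfactory receptor genes were the most numerous of the listed groups, 45 genes with 129 peaks. Of these peaks 1 was lower (0.775%, against 5.70% of distal and 2.46% of all peaks), near Olfr767 (-0.82, limma, adjusted p = 0.0205), and 0 higher, with a median of -0.06. The Olfr767 call was lost without WT replicate 2, WT replicate 3 or KO replicate 2, and with DESeq2 (adjusted p = 0.208). The single peaks at Krt88 (-0.53) and Hoxc5 (-0.09) were not called by limma, edgeR or DESeq2, and the former had an unadjusted p under 0.05. Genes named Gm with a number or ending in Rik, mostly unstudied transcripts, numbered 104 with 223 peaks, of which 23 were lower (10.3%, against 5.70% of the distal peaks and 2.46% of all peaks), at 20 genes, and 0 higher, and DESeq2 called 13. The smallest p among them was near Gm11770 (-1.09, limma, adjusted p = 1.59e-05). The genes with most distal peaks had no lower peak. The neuronal adhesion gene Negr1 had 120 peaks with a median of 0.20. Fgf14, which encodes a modulator of sodium channels, had 105 with a median of 0.15, and Dok6, an adaptor protein gene, 81 with a median of 0.08. Their whole windows, on chromosomes 3, 14 and 18, also had few lower peaks (1.34%, 3.52% and 0.615%).

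The 4 higher peaks were on chromosomes 1, 3 and 15. Outside genes at chr1:192797551-192799200 the values were 4.94, 4.45 and 4.72 in WT and 5.72, 5.48 and 5.52 in KO (0.87, limma, adjusted p = 0.00709), with no overlap. The intronic Negr1 peak chr3:156951151-156953400 had 5.61, 5.48 and 4.98 in WT and 6.04, 6.02 and 5.95 in KO (0.65, limma, adjusted p = 0.0281). A further peak outside genes, chr3:158883901-158887350, changed by 0.64 (limma, adjusted p = 0.00471). At the start site of Fignl2 (chr15:101052151-101055150) the values were 6.94, 6.32 and 6.33 in WT and 6.81, 7.27 and 7.24 in KO (0.58, limma, adjusted p = 0.00847), and the groups overlapped. DESeq2 called none of the 4, edgeR called all 4, and each lost its call in limma when some single library was left out.

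H3K9me2, the dimethyl mark that also covers silent chromatin, was compared in the same windows. Its 797 distal regions covered 11.3 Mb. EdgeR's quasi-likelihood test on reads summed per region called 0 lower and 0 higher, and over all 47065 regions it called 0.00212% lower and 0% higher. DESeq2 also called 0 distal regions (0.00637% of all regions lower, 0% higher), and 34 had an unadjusted p under 0.05 (4.27%, 13 lower and 21 higher), against 3.12% of all regions. The median change was 0.015, and changes ranged from -0.64 to 0.60. Distal regions held 1.49%, 1.52% and 1.53% of the H3K9me2 reads in WT and 1.54%, 1.51% and 1.55% in KO, which overlapped, with 1.53% and 1.57% in the inputs. These are shares of the reads in all H3K9me2 regions, so they compare distal regions with other regions and not with the input level.

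Across chromosomes the median H3K9me2 change lay between -0.06 and 0.11 except on chromosome 2, where it was -0.24 over 19 regions. The region of smallest p was there, chr2:179317201-179329200, with 3.26, 2.54 and 2.78 log2 CPM in WT and 2.40, 2.24 and 2.62 in KO (-0.47, edgeR, unadjusted p = 0.00633, adjusted p = 1), and the groups overlapped. Of the distal H3K9me3 peaks, 60.4% overlapped an H3K9me2 region, against 69.5% of other autosomal peaks. Of the 149 lower H3K9me3 peaks 22 did (14.8%), and the share among lower peaks elsewhere was also 14.8%. The 19 H3K9me2 regions under lower H3K9me3 peaks had a median change of 0.02, and 7 were below 0. At 1600002D24Rik, where H3K9me3 was lower, the H3K9me2 region chr16:95881951-95888550 had 1.64, 1.49 and 1.71 log2 CPM in WT and 1.77, 2.17 and 2.29 in KO (0.48, edgeR, unadjusted p = 0.00992, adjusted p = 1). Under the lower peak at Cdh4, a cadherin gene, the H3K9me2 difference was -0.34 (chr2:179457151-179460600, edgeR, unadjusted p = 0.016, adjusted p = 1).

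**Figure D5:**
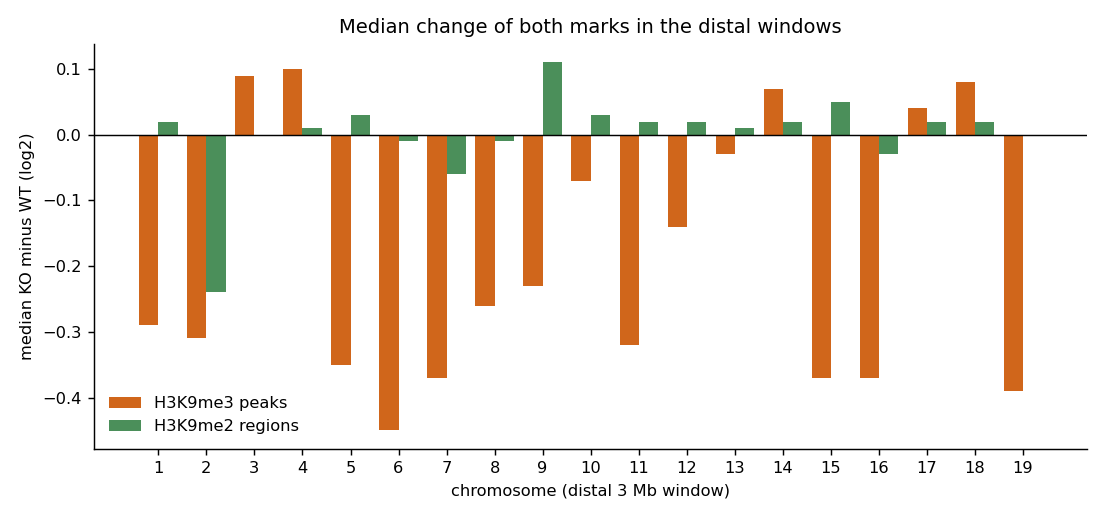
Median KO minus WT change (log2) of the H3K9me3 peaks (orange) and of the H3K9me2 regions (green) in the distal window of each chromosome. H3K9me3 medians reach -0.45 on chromosome 6, while H3K9me2 medians lie between -0.06 and 0.11 apart from -0.24 on chromosome 2.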

How the data were processed

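The histone marks H3K9me3 and H3K9me2 were measured by ChIP-seq in 16 libraries. The authors trimmed reads (Trim Galore 0.4.4), mapped them to GRCm38 with Bowtie2 2.3.2, removed low mapping qualities and duplicates, and called MACS peaks once per mark on all ChIP libraries against both inputs. For H3K9me3 the deposited values are log2 read counts per peak, with distributions matched across the 6 ChIP libraries by the authors and inputs left unmatched. For H3K9me2 the deposited signal is a mean read count per peak of a region, and it was multiplied by the number of peaks to give counts. Deposited score columns (standard deviations) and the authors' own p-value and fold columns, which hold their edgeR comparison, were not used, nor were the shorter deposited tables of peaks past that test, which include deposited counts for H3K9me2.

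H3K9me3 values were tested with limma 3.58.1 (trend) and H3K9me2 counts with edgeR 4.0.16 (quasi-likelihood, TMM), WT against KO, two-sided, at a Benjamini-Hochberg adjusted p under 0.05 over all peaks. Matching and scaling remove any change shared by all peaks. H3K9me3 read counts were recovered by undoing the matching, which returned the deposited values within 0.002 for 99.92% of peaks in the lowest library; counts of 3230 peaks (1.52%), 94 of them distal, were extrapolated. Recovered counts gave read shares, ChIP over input (1 read added) and the edgeR and DESeq2 1.42.0 alternatives (DESeq2 gave an adjusted p for 154685 peaks). H3K9me2 depth was 18986927 to 39080740 reads in regions. Scripts were tested on simulated data.

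Peaks were named as follows: per window, the called peak with the smallest p among those whose groups do not overlap, the 10 lower and 10 higher of smallest p near genes (1 per gene, same condition; only 1 higher peak qualified), the top called peak of each gene list, the 3 with most TTAGGG units and the 3 with the highest ChIP over input. The 3 other higher peaks, the peaks with the 14-mer, further peaks with TTAGGG runs, the 2 last peaks called and the H3K9me2 regions were named after their values were seen. Members and lists were chosen with earlier results of these data known. Sequences are from RefSeq (GRCm38.p6), start sites and exons from GENCODE, and nearest genes from the deposited annotation. No label pairs the libraries by replicate number. The correlation of deviations within a number was -0.01 to 0.01 for H3K9me3 and up to 0.22 for H3K9me2. Pairing is therefore not settled, and the main fits used no block. Leaving out each library, a replicate block, a GC correction, low-value filters, other window sizes and stricter thresholds were tried. Results for some genes and sequences are not reported here.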

Additional observations from a re-analysis of the deposited data

How the results depend on the processing

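Of the 149 lower and 4 higher distal H3K9me3 peaks, DESeq2 on recovered counts called 69 and 0, a change of at least 1 (log2) left 42 and 0 (0.683% and 0.0885% over all peaks), and an adjusted p under 0.01 left 95 lower (1.58%). With a GC correction 133 were lower and 8 higher (2.37% and 0.323%). In the last 1 Mb 51 were lower (4.62%) and 1 higher (0.0905%), and in the last 5 Mb 261 (5.5%) and 7 (0.148%). Leaving out 1 library gave 95 to 135 lower and 2 to 9 higher peaks, and over all peaks 1.53% to 2.29% and 0.166% to 0.252%. Without WT replicate 1 there were 95 and 9, and without WT replicate 3 or KO replicate 3 there were 2 higher. The cause of these shifts was not tested, apart from the smaller windows, fewer libraries and stricter thresholds themselves. The median change stayed below 0 under every alternative tried. The WT ChIP over input of 0.00 became -0.03 with 5 reads added or with at least 10 input reads, 0.07 when scaled by the median ratio and 0.03 in the last 1 Mb. H3K9me2 calls stayed at 0 under every alternative tried.

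With the replicate number as a block, 147 H3K9me3 peaks were lower and 5 higher, so the block moved these counts by 2 and 1. The H3K9me3 median was -0.025 and the H3K9me2 median 0.016. Over all H3K9me2 regions the block called 15 lower and 2 higher, against 1 and 0 without it. The correlation of deviations within a replicate number was -0.01, 0.01 and -0.01 (H3K9me3) and 0.22, 0.00 and 0.11 (H3K9me2). Of the 30 named peaks that were called, 23 were called under every alternative tried, 28 of 330 alternative values lost the call (7 with DESeq2 and 21 on leaving out a library), and 0 reversed. The median distal peak held 22 to 36 reads per library, which limits the precision at single peaks.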

Other observations

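Large distal peaks on different chromosomes shared sequence with each other. Among the 133 distal peaks at least 5 kb wide, 6 of 22 with a ChIP over input of at least 1 (log2) shared 20% or more of the 21-mers of the smaller peak with another such wide peak, against 2 of 111 of the rest. There were 6 such pairs. Gm20939 on chromosome 17 was paired with Gm32856 on chromosome 8 (34.1%), AC226737.1 on chromosome 10 (27.4%) and Gm7102 on chromosome 19 (24.6%). Gm32856 was also paired with Gm7102 (23.4%), and the last peak of chromosome 9 with that of chromosome 19 (25.3%). The most shared pair lay at chr11:120327901-120335250 and chr15:103841251-103847100 (35.5%) outside genes. Widths differ between these peaks, and the overlap was not tested.

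The chromosome 4 window stood apart from the other windows with few peaks. It had 79 peaks with a median change of 0.10 and a median GC content of 49.8%, 3 of them lower (3.80%). Its KO input was 0.23 (log2) above the WT input, and the part of GC content and input in this value was not tested.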
